A study of Mus musculus with 4 samples.

Results

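The cells described here were the few hematopoietic stem and progenitor cells (HSPCs) of young mice in which transcripts of genes induced by aging were already detected together. Cells of the 2 young pools were kept when the logarithm of their total count of unique molecular identifiers (UMIs, each standing for 1 captured transcript) lay within 2 SD of the mean of their pool. A kept cell was a member when at least 2 of the genes Nupr1, Clu, Selp, Sbspon, Matn4, Cldn5, Plscr2 and Gstm2 each had 1 UMI or more. This rule found 190 members among 7433 kept young cells, 104 of 5189 in young pool A and 86 of 2244 in young pool B. They were compared with the 4380 and 1810 kept cells of the same pools in which none of the 8 genes was detected.

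The series held 4 pools of bone marrow from C57BL/6-CD45.2 male mice, 2 pools of young mice (2 to 3 months) and 2 pools of aged mice (17 to 18 months), each made from 2 or 3 animals with no genetic change and no treatment. Cells negative for lineage markers and Flt3 and positive for Sca1 and cKit were sorted and captured in droplets with the 10x Genomics 3′ kit, version 2. Pools A were captured and sequenced at the HalioDX facility and pools B at the TGML facility. Ages were taken from titles and source names. For 2 pools, young B and aged A, the longer description gives the opposite age.

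Hematopoietic stem cells (HSCs) are mostly quiescent cells at the top of blood formation, and they give rise to multipotent progenitors that divide more and lose self-renewal. With age the HSC compartment grows, its output shifts towards platelets and myeloid cells, and a recurrent set of genes is expressed at higher levels. The 8 genes of the rule belong to that set and have different functions. Nupr1 encodes a small stress-induced chromatin protein and Clu the extracellular chaperone clusterin. Selp encodes P-selectin, an adhesion receptor of platelets and endothelium, and Cldn5 encodes claudin 5, a tight junction protein best known in endothelium. Matn4 encodes the matrix protein matrilin 4, Plscr2 a phospholipid scramblase, Gstm2 a glutathione transferase, and Sbspon a secreted protein with somatomedin B and thrombospondin domains.

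Promoter sequences were available for 5 of the 8 genes in the RefSeq table of build GRCm38.p6. Those of Nupr1, Selp and Gstm2, on 3 different chromosomes, are shown because short motifs of regulators active in blood or stress were found in them. Joint detection of 2 or more of the 8 genes is set by the rule. In young pools A and B, Nupr1 was found with Selp in 15 and 10 cells and with Gstm2 in 12 and 10. Selp was found with Gstm2 in 3 and 5 cells. Shared regulation of these genes was not tested. Each sequence is the 250 bases before the annotated start, read 5′ to 3′ on the strand of the gene. Capitals mark TGATGCAA, the core of an amino acid response element, in Nupr1, and AGGAAG, a core bound by ETS factors, in Selp and Gstm2, on either strand.
Nupr1 (chr7:126625471-126625720, minus strand): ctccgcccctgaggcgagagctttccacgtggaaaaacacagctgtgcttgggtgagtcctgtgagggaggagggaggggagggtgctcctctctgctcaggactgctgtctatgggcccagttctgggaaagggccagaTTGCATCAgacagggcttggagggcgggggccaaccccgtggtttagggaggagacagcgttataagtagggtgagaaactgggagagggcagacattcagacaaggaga
Selp (chr1:164115014-164115263, plus strand): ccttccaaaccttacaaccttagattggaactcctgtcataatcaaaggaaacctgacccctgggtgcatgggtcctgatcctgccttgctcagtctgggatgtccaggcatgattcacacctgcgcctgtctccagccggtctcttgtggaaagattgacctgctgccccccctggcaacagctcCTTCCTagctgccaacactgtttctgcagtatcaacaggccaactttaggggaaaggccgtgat
Gstm2 (chr3:107986421-107986670, minus strand): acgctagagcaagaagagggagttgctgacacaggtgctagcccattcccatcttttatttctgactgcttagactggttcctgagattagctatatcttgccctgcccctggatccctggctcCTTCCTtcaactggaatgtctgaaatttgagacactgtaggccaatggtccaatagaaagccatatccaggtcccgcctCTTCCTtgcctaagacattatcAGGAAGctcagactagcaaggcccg
The Nupr1 window lies inside the span of the gene in the GENCODE annotation, which has an upstream start. The end of the Gstm2 window, from its first coordinate to the end of that gene at position 107986453, likewise lies inside the annotated gene and holds the last of the marked motifs. The motif TGATGCAA occurred on either strand in 0.7915% of 32851 promoters of this length and AGGAAG in 29.48%, so the latter is common. The motif AGATAA, for the zinc finger factors named after its core, occurred in 9.988% of promoters. The motif of RUNX factors, TGTGGT, occurred in 14.05%, and the AP-1 motif, TGACTCA, in 4.463%. These last 3 motifs were not found in the windows shown. None of the 5 motifs was found in the promoters of Matn4 (chr2:164405161-164405410, minus strand) and Cldn5 (chr16:18776597-18776846, plus strand). A match describes the letters of the window and does not show that a factor binds there.

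Members made up 2.00% of kept cells in young pool A (95% exact binomial interval 1.64 to 2.42%) and 3.83% in young pool B (3.08 to 4.71%). The same rule took 2392 of 3328 kept cells (71.9%) in aged pool A and 3637 of 4154 (87.6%) in aged pool B. The 8 genes were chosen for their rise with age, so this contrast between ages is a description and no test was made of it. The intervals cover counting error only.

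The young members were cells with deeper counts. Their median was 7606 UMIs in pool A and 7381 in pool B, against 5924.5 and 6112.5 in the cells with none of the 8 genes. Over 4 bins of equal cell number, from the shallowest to the deepest cells, the share of members was 0.617%, 1.23%, 2.78% and 3.39% in pool A and 1.78%, 3.22%, 4.44% and 5.88% in pool B. Detection thus rose with depth in both pools, and in every bin the share was higher in pool B. When each cell was thinned to 3000 UMIs, 29 of 5189 cells (0.559%) in pool A and 35 of 2194 (1.60%) in pool B still met the rule. Young pool B was sequenced more deeply per cell at another facility, and pool, facility and depth of reads cannot be told apart in this difference.

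**Figure D1:**
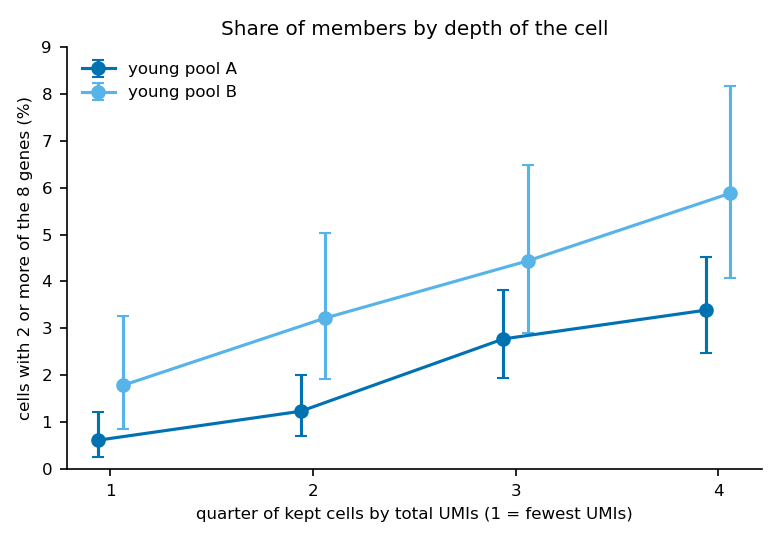
Share of kept cells (percent, y axis) that met the rule of 2 or more of the 8 genes in each of 4 bins of total UMIs (x axis, shallowest to deepest) in the 2 young pools, with bars for 95% exact binomial intervals. The share rose from 0.617% to 3.39% in pool A and from 1.78% to 5.88% in pool B.

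Droplets also hold free RNA, so the share was set beside that of cells that carried a granulocyte program. Among cells with UMIs of 3 or more of Mpo, Elane, Prtn3, Ctsg and Ms4a3, genes of neutrophil granules and their precursors, 14 of 727 in pool A (1.93%, median 9220 UMIs) and 6 of 192 in pool B (3.13%, median 9612 UMIs) met the rule. Among cells with neither these nor 3 or more of 5 erythroid genes, 89 of 4308 (2.07%, median 5779 UMIs) and 79 of 2011 (3.93%, median 6071 UMIs) did. At 3000 UMIs the shares were 0.275% against 0.627% in pool A and 0.524% against 1.73% in pool B, and the intervals of the paired shares overlapped in both pools. In the aged pools 357 of 513 (69.6%) and 27 of 78 (34.6%) of the cells with the granulocyte genes met the rule, against 73.4% and 89.2% of cells with neither program, and Prtn3 is also on the published list of HSC aging genes, so these cells are not a sure reference for free RNA. Among cells with 3 or more of the 5 erythroid genes, 1 of 179 in pool A (0.559%, median 9780 UMIs) and 1 of 44 in pool B (2.27%, median 11291 UMIs) met the rule, and 0 of 179 and 0 of 43 at 3000 UMIs, with intervals that reach 2.04% and 8.22%. In the aged pools 27.9% and 23.8% of such cells met it. The young shares of both reference groups had intervals that overlapped those of the cells with neither program, and the following results rest on which genes occur together.

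Nupr1 and Clu carried most of the memberships. Nupr1 was detected in 70.2% of members in pool A and 61.6% in pool B, and Clu in 47.1% and 62.8%. Selp was found in 25% and 29.1% of members, Plscr2 in 23.1% and 34.9%, Gstm2 in 17.3% and 23.3%, Cldn5 in 18.3% and 10.5%, Matn4 in 12.5% and 9.30%, and Sbspon in 2.88% and 2.33%. The commonest pair was Nupr1 with Clu, in 27 of 104 members (26.0%) of pool A and 32 of 86 (37.2%) of pool B. These values follow from the rule and are given as a description.

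Most members lay just inside the threshold. Exactly 2 of the 8 genes were detected in 89 cells of pool A and 62 of pool B, and 3 or more in 15 and 24. Just outside it, exactly 1 gene was detected in 705 and 348 cells, whose median counts were 6734 and 6771 UMIs. No young cell had 5 or more of the 8 genes, against 18.0% and 37.9% of kept cells in aged pools A and B. Summed over members and scaled to a common total (CPM), Nupr1 stood at 122 and 140 in the young pools, A first, and at 447 and 591 CPM in members of the aged pools. Clu stood at 91.4 and 142 CPM against 186 and 217 CPM, and Sbspon at 3.26 and 3.97 CPM against 53.3 and 100.1 CPM. For all 8 genes the members of both young pools were below those of both aged pools. The genes were chosen for their rise with age, so this order is a description. Most aged members also held 3 or more of the 8 genes, 1738 of 2392 in pool A and 3074 of 3637 in pool B.

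Endothelial markers were found in a few members. Of all 14915 kept cells, 2 held UMIs of 2 or more of the endothelial genes Cdh5, Plvap, Stab2 and Flt4, and both were among the 104 members of young pool A. The first, with 3100 UMIs, held 7 of Cdh5, 5 of Plvap and 3 of Stab2, and 0 of Kit and of Ptprc, which encodes the pan-hematopoietic antigen CD45. The second, with 13205 UMIs, held 3 of Stab2, 3 of Flt4, 0 of Kit and 2 of Ptprc. Of the 8 genes of the rule, the 2 cells held 3 and 5 UMIs of Cldn5, 2 and 1 of Selp and 2 and 1 of Plscr2, and the first also held 1 of Nupr1. Over a list of 16 endothelial genes the summed level was 403.8 CPM in members and 288.7 CPM in cells with none in pool A, and 217.2 and 228.2 CPM in pool B, with 3 and 10 of the 16 genes at 0 in members. The most abundant gene of this list was Egfl7, which HSCs also express. The tests on summed counts were also run without these 2 cells, whereas shares of cells and the search for alike genes were not.

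Cells carrying lineage programs were present in both classes. Cells with the neutrophil genes made up 13.5% and 6.98% of members and 14.0% and 8.84% of cells with none, in pools A and B. Cells with 3 or more of 5 mast cell genes made up 1.92% and 2.33% of members against 5.96% and 2.71%. Cells with 4 or more of 10 platelet genes made up 6.73% and 5.81% of members against 3.81% and 1.27%. Members were deeper cells, and these shares were not brought to equal depth. Barcodes were also shared between libraries: 51 kept cells of young pool A and 22 of young pool B carried a barcode that also occurred in an aged library, and 2 and 1 of them were members.

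To ask whether the 8 genes occurred together more than the rule forces, each gene was left out in turn. Cells with 2 or more of the other 7 genes were compared with cells with none of these 7 in the level of the gene left out, on counts summed per pool and class, by edgeR's quasi-likelihood test with the pool as a block and Benjamini-Hochberg (BH) adjustment over all genes tested. In such sums, more cells with a transcript and more transcript per cell cannot be told apart. P-values rest on a spread estimated over the 8 sums of young and aged pools together and moderated across genes. They do not measure the spread between the 2 young pools alone.

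Of the 8 genes left out in turn, 7 rose in the young cells chosen by the others. Clu stood at 4.40 and 4.62 CPM in cells with none of the other 7 genes in pools A and B, and at 32.7 and 98.4 CPM in cells with 2 or more. Nupr1 stood at 11.1 and 16.8 CPM against 45.1 and 90.1 CPM. In both genes each pool of chosen cells was above both pools of the others. The log2 fold change was 3.67 ± 0.29 (SE) for Clu (edgeR, BH adjusted p = 3.91e-08) and 2.22 ± 0.18 for Nupr1 (1.06e-11). Both were also called with any 1 of the 4 pools left out, on matched depth, without a filter on low counts and without the 2 endothelial cells.

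The other genes rested on fewer UMIs. Gstm2 stood at 2.03 and 3.33 CPM against 6.31 and 24.5 CPM, a log2 fold change of 2.38 ± 0.44 (edgeR, BH adjusted p = 0.00641). Selp stood at 3.42 and 5.28 CPM against 13.1 and 18.1 CPM (1.81 ± 0.34, adjusted p = 0.0110). Plscr2 stood at 2.68 and 3.19 CPM against 9.16 and 16.4 CPM (2.04 ± 0.42, adjusted p = 0.0113). For these 3 genes the levels of the pools did not overlap between classes. Matn4 stood at 0.531 and 0.387 CPM against 3.65 and 8.27 CPM (3.50 ± 0.72, adjusted p = 0.00739), also without overlap. Cldn5 stood at 3.48 and 2.46 CPM against 23 and 8.34 CPM (2.41 ± 0.51, adjusted p = 0.0231). Sbspon, at 0.662 and 0.849 CPM against 0 UMIs in pool A and 2.69 CPM in pool B, did not pass (0.65 ± 1.19, adjusted p = 0.940). Without the 2 cells with endothelial markers, Cldn5 in the chosen cells of pool A fell from 23 to 13.6 CPM and did not pass (log2 fold change 1.85, adjusted p = 0.240), nor did Plscr2 (1.75, adjusted p = 0.0678), which left 5 of 8. When as many cells with none as there were members were taken, matched on depth, 3 of 8 passed, namely Clu (3.53, adjusted p = 0.00490), Nupr1 (2.81, 1.41e-04) and Gstm2 (3.40, 0.0484). Of those lost, Cldn5 (4.61, adjusted p = 0.140), Plscr2 (4.05, 0.0551) and Selp (2.73, 0.158) had larger log2 fold changes than in the full comparison, and Matn4 a smaller one (1.16, 0.811). The matched cells with none numbered 93 and 80 for Cldn5, 86 and 66 for Plscr2 and 87 and 69 for Selp. With so few cells at these low levels, the larger values do not show a stronger effect. Without young pool A, 4 of 8 passed (Clu, Nupr1, Gstm2 and Matn4), and without young pool B 3 of 8 (Clu, Nupr1 and Cldn5).

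**Figure D2:**
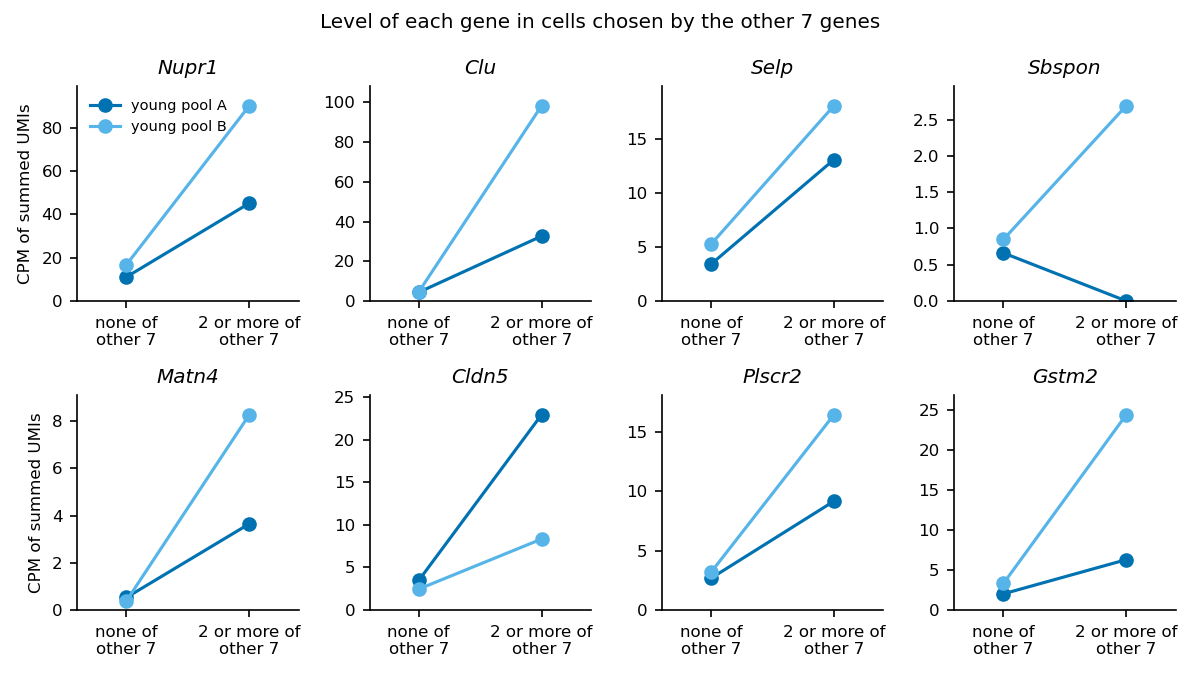
Level of each of the 8 genes (CPM of UMIs summed per pool, y axis, separate scales from 0) in cells with none and with 2 or more of the other 7 genes, for young pools A and B. Both pools rose from the first class to the second for 7 genes, and Sbspon fell to 0 in pool A and stood at 2.69 CPM in pool B.

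In the aged pools all 8 genes passed the same test. The class effect differed between ages for Nupr1 alone, where it was larger in young cells by 1.05 on the log2 scale (edgeR, BH adjusted p = 0.00277). It was called neither without young pool B (0.81, adjusted p = 0.670) nor on matched depth (1.66, adjusted p = 0.404). For Clu the difference was 1.08 with an adjusted p of 0.112. That of Clu was called in edgeR with no filter on low counts (1.05, adjusted p = 0.00831), without aged pool B (1.35) and without young pool A (1.79). Without young pool B it was 0.24. For Cldn5 the difference was −0.35, and it was called without aged pool A (−1.64). For Sbspon, which rests on 0 and 2 UMIs in the chosen young cells, it was −3.12, so smaller in young pools, with an adjusted p of 0.157, and it was called without aged pool A (−4.28, adjusted p = 7.29e-04), without young pool B (−9.87, 0.0367) and with no filter on low counts (−3.15, 0.0229).

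Over all other genes, 170 of 12340 tested (1.38%) differed between young members and cells with none of the 8 genes, 91 higher (0.737%) and 79 lower (0.64%) in members (edgeR, BH adjusted p under 0.05). Of the 170 genes, 164 moved the same way in both young pools. Members were summed to 918868 and 754928 UMIs and cells with none to 30052045 and 12894581 UMIs, so the members set the precision. Without the 2 cells with endothelial markers 191 genes were called, 162 of them shared with the 170. With cells of none matched on depth 51 were called, 43 of them among the 170, and 157 of the 159 genes of the 170 that could be tested kept their direction. Without the pool as a block 0 genes passed in edgeR, with 447 at an unadjusted p under 0.05, against 1180 with the block. The number was 29 without young pool A and 106 without young pool B. DESeq2 called 96 genes, and of the edgeR calls described in the next paragraphs it did not call Cdkn1c, Cpa3, Cd52, Flt3, Fut7, Nusap1, Plac8, Jam2, Gp9, Fcer1a, Lmo4, Sox18, Klf2, Isg15, H2-Ob and Gas2l3.

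Genes published as changed in aged HSCs were among those that rose. On a published list, from which the 8 were taken out and 205 of the remaining 212 were tested, 27 were higher and 6 lower in young members. The median log2 fold change was 0.45, against −0.03 over all genes tested. The list was not split by the published direction of change. It holds Plac8, which the paper reports as lower with age, so a fall on this list does not by itself run against aging. Vwf, which encodes the von Willebrand factor of platelets and endothelium, stood at 6.92 and 4.89 CPM in cells with none and at 34.8 and 42.4 CPM in members of pools A and B. Cells with exactly 1 of the 8 genes lay between, at 16.8 and 17.5 CPM. The log2 fold change of Vwf was 2.65 ± 0.29 (edgeR, BH adjusted p = 7.59e-05). Sdpr, an older symbol of Cavin2, which encodes a coat protein of caveolae, stood at 11.8 and 10.3 CPM against 64.2 and 76.8 CPM (2.62 ± 0.18, adjusted p = 4.01e-07). Sult1a1, a sulfotransferase, stood at 23.8 and 26.1 CPM against 77.3 and 172 CPM (2.21 ± 0.23, adjusted p = 4.38e-05). For all 3 genes both pools of members were above both pools of cells with none, and the call held without either young pool, without the 2 endothelial cells and on matched depth.

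Other genes that rose had varied functions. The imprinted non-coding RNA Meg3 stood at 49.3 and 56.8 CPM in cells with none and 131 and 183 CPM in members of pools A and B (log2 fold change 1.52, adjusted p = 8.04e-06). Slfn2, a gene of the Schlafen family tied to quiescence of lymphocytes, stood at 24.9 and 20.9 CPM against 67.5 and 76.8 CPM (1.62, adjusted p = 1.07e-04). The transglutaminase Tgm2 stood at 36.6 and 27.1 CPM against 111 and 71.5 CPM (1.49, adjusted p = 7.45e-05). Members were above cells with none in both pools for these 3 genes too, and each was also called on matched depth. Apoe, which encodes the lipid carrier apolipoprotein E, rose less, from 619 and 626 CPM to 866 and 1229 CPM (0.70, adjusted p = 0.00105), and was not called without young pool B (0.46). Among calls with a mean of at least 20 CPM that moved alike in both pools, the remaining genes with the largest rise were Clec1a, a C-type lectin (1.53), Fhl1, a LIM-domain protein (1.51), the guanine deaminase Gda (1.48) and the CDK inhibitor Cdkn1c (1.30), and none of these 4 was called without young pool A (1.83, 1.78, 1.52 and 1.69).

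**Figure D3:**
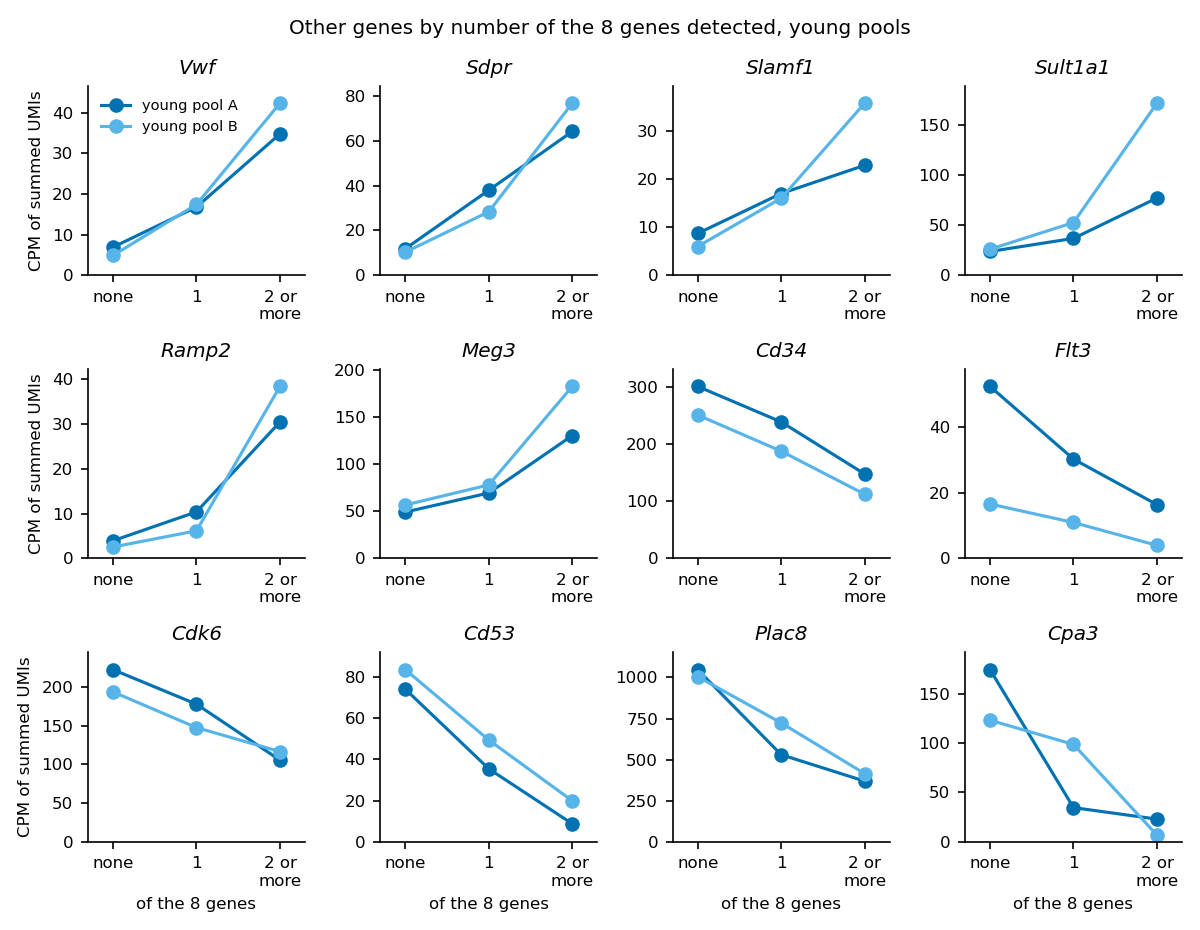
Level of 12 genes outside the rule (CPM of UMIs summed per pool, y axis, separate scales from 0) in cells with none, exactly 1 and 2 or more of the 8 genes, for young pools A and B. Vwf, Sdpr, Slamf1, Sult1a1, Ramp2 and Meg3 were higher with each step in both pools, and Cd34, Flt3, Cdk6, Cd53, Plac8 and Cpa3 were lower.

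Markers of HSCs were higher in members where they passed the test, but many did not pass. Of 29 HSC markers tested, 5 were higher and 0 lower, with a median log2 fold change of 0.53. Over all genes tested 0.737% were higher and 0.64% lower, and these shares apply to the young list counts below too. The lists overlap, and Sult1a1 counts both here and among the detoxification genes. Slamf1, which encodes the HSC antigen CD150, stood at 8.68 and 5.97 CPM in cells with none and 22.9 and 35.8 CPM in members of pools A and B (1.93 ± 0.30, edgeR, BH adjusted p = 0.00206). Without young pool B it was not called (1.37). Mycn, a MYC family transcription factor, stood at 113 and 56.7 CPM against 232 and 163 CPM (1.23, adjusted p = 0.00166), and its pools did not overlap between classes. Sult1a1 and Fhl1 were also among the calls. Mllt3, a regulator of HSC maintenance, was close to the threshold (0.86, adjusted p = 0.0550), and was called on matched depth (1.47, adjusted p = 0.0324) and without the 2 endothelial cells (0.87, adjusted p = 0.0384). Procr, the HSC marker EPCR, stood at 96.3 and 112 CPM against 110 and 139 CPM (0.22, adjusted p = 0.840). Also short of the test were Mecom (0.43), Hlf (−0.35), Fgd5 (0.62), Meis1 (0.04) and Ly6a, which encodes Sca1 (−0.27). Members and cells with none were both sorted for Sca1 and cKit, and Kit itself had a log2 fold change of −0.33 (adjusted p = 0.541).

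Markers of multipotent progenitors were lower in the same cells. Of 16 tested, 9 were lower and 0 higher, 15 had a negative log2 fold change, and the median was −1.11. Summed over the list, the level was 3485 and 3327 CPM in cells with none and 1755 and 1894 CPM in members of pools A and B. Cd34, a surface sialomucin that is low on mouse HSCs, stood at 301 and 251 CPM against 148 and 113 CPM (−1.11 ± 0.14, edgeR, BH adjusted p = 3.82e-04). Cdk6, the kinase that speeds exit from quiescence, stood at 223 and 194 CPM against 106 and 117 CPM (−0.93 ± 0.13, adjusted p = 0.00116). The leukocyte tetraspanin Cd53 stood at 74.2 and 83.7 CPM against 8.71 and 19.9 CPM (−2.54 ± 0.24, adjusted p = 1.35e-05). For these 3 genes both pools of members were below both pools of cells with none, and all 3 were also called on matched depth. Without young pool A the call of Cdk6 was lost (−0.72). Flt3, the receptor used in the sort to leave cells out, was at 52.2 and 16.5 CPM against 16.3 and 3.97 CPM (−1.78, adjusted p = 0.00751), so the members of pool A stood about level with the cells with none of pool B. Flt3 was called neither without young pool A (−2.04) nor on matched depth (−1.57, adjusted p = 0.147). Plac8, expressed in progenitors and maturing myeloid cells, stood at 1048 and 1005 CPM against 369 and 415 CPM (−1.42, adjusted p = 0.0148). Without young pool A its call was lost (−1.27), and 1 cell held 28.9% of the members' Plac8 UMIs in pool A and 1 cell 40.9% in pool B. Cd48, a marker of progenitors, did not pass (−1.20, adjusted p = 0.469). Also among the largest falls were Cd52, a small surface glycoprotein of leukocytes, at 108 and 126 CPM against 26.1 and 34.4 CPM (−1.98, adjusted p = 0.0101), and Fut7, a fucosyltransferase that makes selectin ligands, at 31.2 and 32.5 CPM against 14.1 and 6.62 CPM (−1.60, adjusted p = 0.0161). Their pools did not overlap between classes, but neither was called without young pool A or on matched depth, nor Fut7 without young pool B.

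Platelet genes rose in part. Of 19 megakaryocyte and platelet genes tested, 4 were higher and 0 lower, with a median of 0.53. Besides Vwf and Sdpr, the platelet glycoprotein gene Gp9 stood at 46.7 and 43.4 CPM in cells with none and 82.7 and 64.9 CPM in members of pools A and B (0.69, edgeR, BH adjusted p = 0.0286), without overlap. Its call was lost without young pool A (0.59, adjusted p = 0.756) and without young pool B (0.80, adjusted p = 0.0750), and its sign changed under the rule without Nupr1 and Clu (−0.13). Itga2b, which encodes CD41, stood at 50.6 and 21.2 CPM against 31.6 and 19.9 CPM (−0.50, adjusted p = 0.469). Pf4, which encodes platelet factor 4, stood at 147 and 143 CPM in cells with none, 287 in cells with exactly 1 gene of both pools, and 169 and 265 CPM in members (0.53, adjusted p = 0.101). On matched depth it was called (0.97, adjusted p = 0.0334). Of the members' Pf4 UMIs, 1 cell held 48.4% (75 UMIs) in pool A and 1 cell 72% (144 UMIs) in pool B. Its log2 fold change was −0.97 without the deepest 10% of cells, −1.42 with 3 or more of the 8 genes, −1.32 with the rule at 3000 UMIs and −1.22 with the rule without Nupr1 and Clu. The summed list stood at 906.1 and 801 CPM against 1182 and 1315 CPM.

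Summed levels of mast cell, basophil and B lineage transcripts were lower in the members. Of 12 mast cell and basophil genes tested, 5 were lower and 0 higher, with a median log2 fold change of −3.20. Over this list the summed level was 2690 and 2676 CPM in cells with none and 312.3 and 186.8 CPM in members of pools A and B, and its most abundant gene in cells with none was Prss34. Prss34, a protease of basophils, stood at 1290 and 1307 CPM against 71.8 and 25.2 CPM (−4.79 ± 0.49, edgeR, BH adjusted p = 4.09e-05). Cpa3, the mast cell carboxypeptidase, stood at 174 and 123 CPM against 22.9 and 6.62 CPM (−3.34 ± 0.57, adjusted p = 0.00462). The pools did not overlap between classes for either gene. Cpa3 was also called on matched depth (−3.63, adjusted p = 0.0430) but not by DESeq2 (adjusted p = 0.0512). On matched depth Prss34 (−3.69, adjusted p = 0.110) and the basophil protease Mcpt8 (−3.28, adjusted p = 0.142) were not. The other calls were Fcer1a, the alpha chain of the IgE receptor (−5.85), which was not called without young pool A, and the LIM-domain gene Lmo4 (−0.87), whose call was lost without either young pool. The share of members with a UMI was not lower for the most abundant of these genes. At least 1 UMI of Prss34 was found in 43.3% and 22.1% of members and 40.6% and 17.0% of cells with none, and of Mcpt8 in 41.3% and 19.8% against 39.8% and 16.0%. For Cpa3 the shares were 14.4% and 4.65% against 15.1% and 10.7%. These shares were not brought to equal depth.

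Immunoglobulin transcripts were also lower in the full comparison, with no call on matched depth for the 3 genes described here. The heavy chain gene Ighm stood at 158 and 198 CPM in cells with none and 14.1 and 6.62 CPM in members (−4.06 ± 0.24, adjusted p = 4.75e-08), and the light chain gene Igkc at 440 and 322 CPM against 56.6 and 34.4 CPM (−3.10 ± 0.28, adjusted p = 1.26e-05). Jchain, which joins secreted IgM and IgA, fell by 3.11 on the log2 scale (adjusted p = 8.40e-05). On matched depth Ighm was at −1.24 (adjusted p = 0.111), and Igkc (0.19) and Jchain (0.39) changed sign. The matched fit held 104 and 86 cells with none in place of 4380 and 1810. Depth and the smaller number of cells cannot be told apart in this change. UMIs of Igkc were found in 39.4% and 26.7% of members and 32.0% and 20.4% of cells with none, and those of Ighm in 11.5% and 5.81% against 13.5% and 5.25%, again at unequal depth. Of 14 lymphoid genes 1 was lower, Ighm, and Il7r had 0 UMIs in members of both pools. Of 8 plasma cell genes 2 were lower, Igkc and Jchain.

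Genes of other lineages and most other groups gave few calls. None of 20 erythroid, 13 neutrophil and 12 monocyte and macrophage genes passed in edgeR, with medians of −0.85, −0.60 and −1.13. At an unadjusted p under 0.05 there were 6, 2 and 4, and DESeq2 called 0 in each. Of 8 endothelial genes 1, the transcription factor Sox18, was higher, and none was without the 2 endothelial cells. Sox18 UMIs were found in members of pool A only, as were those of the immediate-early gene Klf2, at 55.5 CPM in members of pool A and 0 in those of pool B. Of 14 stromal genes only 2 were abundant enough to be tested, with 0 called by edgeR and by DESeq2 and 2 at an unadjusted p under 0.05. The summed stromal list stood at 14.9 and 11.1 CPM in cells with none and 38.1 and 3.97 CPM in members of pools A and B, with Sparc at 29.4 CPM in members of pool A, the pool with the 2 endothelial cells, and 10 and 12 of the 14 genes at 0 in members. The part of stromal cells was not tested. Of 19 interferon-stimulated genes 1, Isg15, which encodes a ubiquitin-like modifier, was lower (43.9 and 49.1 CPM against 26.1 and 22.5 CPM, −0.94, adjusted p = 0.0443). Of 10 MHC class II genes, which serve antigen presentation, H2-Ob (−1.87) and H2-DMa (−0.65) were lower. Isg15, H2-Ob and H2-DMa were each called neither without young pool A nor without young pool B. MHC class I (12 genes), translation (30), oxidative phosphorylation (26) and integrated stress response (16) genes gave 0 calls in edgeR, with medians of 0.06, 0.02, −0.05 and 0.08. At an unadjusted p under 0.05 there were 1, 0, 0 and 2, and DESeq2 called 0 in each.

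Cell cycle genes gave few calls between members and cells with none, and the 2 young pools differed. Summed over the list of G2 and mitosis, the level in pool A was 4082 CPM in cells with none and 5386 CPM in members. In pool B it was 3578 and 3443 CPM. The S phase list stood at 2699 and 2495 CPM in cells with none and 2770 and 2354 CPM in members of pools A and B. None of 43 S phase genes passed in edgeR (3 at an unadjusted p under 0.05, 0 by DESeq2), with a median of 0.04. Of 52 genes of G2 and mitosis 2 were higher, Gas2l3 (1.12) and the spindle protein gene Nusap1 (0.72, adjusted p = 0.0391), with a median of 0.28. Neither was called without young pool A or without young pool B, by DESeq2, or on matched depth, where Nusap1 was at 0.07. Under the rule without Nupr1 and Clu both changed sign (Gas2l3 −0.48, Nusap1 −1.24). Nusap1 also did so with 3 or more of the 8 genes (−0.82) and without the deepest 10% of cells (−0.12). On matched depth the medians were −0.20 and −0.21. Mki67, the proliferation marker, stood at 45.2 and 34.4 CPM in cells with none and 66.4 and 43.7 CPM in members (0.44, adjusted p = 0.471). Of 23 genes of cell cycle inhibition and quiescence 4 were higher: the CDK inhibitors Cdkn1c, at 50.9 and 7.45 CPM against 118 and 23.8 CPM and far apart between the pools, and Cdkn1a (1.67, adjusted p = 0.0248), and the cyclins Ccnd1 (0.97) and Ccnd2 (0.45), which drive entry into the cycle rather than hold it. For Cdkn1a 1 cell held 50.0% of the UMIs of members of pool A, and the gene was not called without that pool (1.07). Of 18 metallothionein and detoxification genes 2 were higher, Sult1a1 and the retinaldehyde dehydrogenase Aldh1a1 (1.13). Of 19 adhesion and junction genes 2 were higher, Jam2 (1.68) and Tm4sf1 (4.11), a tetraspanin-like protein at 1.16 and 0.465 CPM in cells with none and 15.2 and 15.9 CPM in members. Of the 14 UMIs of Tm4sf1 in members of pool A, 2 and 3 lay in the 2 cells with endothelial markers, and without these cells the gene was still called (3.80). Neither Aldh1a1 (0.94) nor Jam2 (1.17) was called without young pool A, nor were Ccnd1 (0.87) and Ccnd2 (0.58), and Ccnd2 was not called without young pool B (0.36).

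**Figure D4:**
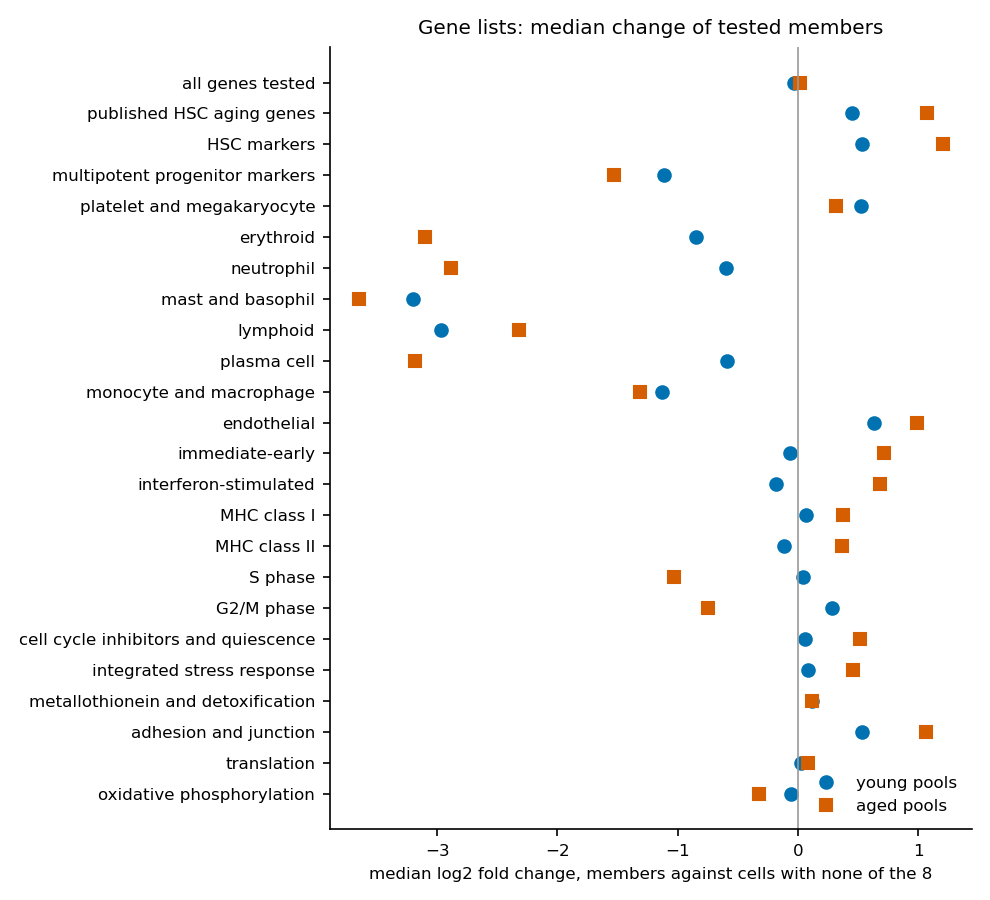
Median log2 fold change of members over cells with none (x axis) of each gene list (y axis) in the young pools and in the aged pools, with the median of all genes tested for comparison. HSC markers and published aging genes lay above 0 and progenitor, mast cell and lymphoid lists below it in both ages, while S phase genes stood at 0.04 in young and −1.03 in aged pools.

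The genes most alike to the rule in the young cells were sought by their share of cells with a UMI at 3000 UMIs, rising from none through exactly 1 to members in both pools. Of 10446 genes in at least 2% of kept young cells, 477 rose in this way. The steepest was Ramp2, a co-receptor of the adrenomedullin receptor, found in 1.07%, 3.55% and 9.62% of cells in pool A and 0.624%, 2.02% and 10.5% in pool B. Next were Timp3, an inhibitor of matrix proteases (0.982%, 1.28% and 8.65%, and 0.738%, 1.16% and 6.98%), then Sdpr, Vwf and Slamf1. Sdpr reached 17.3% and 22.1% of members, from 2.74% and 2.27% of cells with none. These 5 genes were picked by their values, and the shares are a description. Of the members' Timp3 UMIs in pool A, 29.2% (7 UMIs) lay in 1 cell, the second of the cells with endothelial markers, and the first held 2 of Timp3 and 3 of Ramp2. Without these 2 cells both genes were still called on summed counts (Ramp2 3.25, Timp3 2.61).

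The same contrast was made within the aged pools, which are other samples. The 8 genes were chosen with the values of these pools known, so a shared direction is not independent support. There the rare class was that with none of the 8 genes, with 326 cells in pool A and 176 in pool B. At this age 1811 of 12340 genes (14.7%) differed between members and cells with none, 786 higher (6.37%) and 1025 lower (8.31%). Of the 170 genes called in young cells, 163 had the same sign in aged cells and 136 were called there with that sign, 76 of the 91 that were higher and 60 of the 79 that were lower. Among HSC markers 26 of 29 were higher in aged members and 0 lower (median 1.20), and among progenitor markers 12 of 16 were lower and 1 higher (−1.53). Vwf stood at 24.0 and 9.41 CPM in aged cells with none and 74.0 and 72.2 CPM in aged members (2.04), and Slamf1 at 21.6 and 15.7 CPM against 49.1 and 48.0 CPM (1.32). Procr, which did not pass in young cells, stood at 109 and 39.2 CPM against 206 and 212 CPM (1.5, edgeR, BH adjusted p = 1.37e-04), but the difference between the ages did not pass (−1.28, adjusted p = 0.0598).

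The class effect differed between ages in 105 genes (0.851%), 81 of them higher (0.656%) and 24 lower (0.194%) in young relative to aged pools (edgeR, BH). Cell cycle genes were prominent, with 14 of 43 S phase genes and 17 of 52 G2 and mitosis genes higher and 0 lower, and medians of 1.14 and 1.09. In aged pools 39 of the 43 and 31 of the 52 were lower in members, whereas 0 of the 43 and 0 of the 52 were lower in young members. Mki67 fell from 31.8 and 69 CPM in aged cells with none to 18.9 and 26.3 CPM in aged members, and its class effect was larger in young pools by 1.60 (adjusted p = 0.00735). This call of Mki67 was lost without young pool A (1.5, adjusted p = 0.203), and the difference was negative with 3 or more of the 8 genes (−0.59) and under the rule without Nupr1 and Clu (−0.42). The makeup of the classes in lineage programs also differed in the aged pools. Cells with 3 or more of 5 erythroid genes made up 9.82% and 14.2% of aged cells with none in pools A and B, against 24 of 2392 and 10 of 3637 aged members, and cells with the neutrophil genes 16.9% and 18.2% against 14.9% and 0.742%, with overlapping intervals in pool A. Cells with the platelet genes went the other way, at 2.45% and 4.55% of aged cells with none and 8.40% and 8.77% of aged members. The summed erythroid list stood at 2103 and 9970 CPM in aged cells with none and at 1964 and 2037 CPM in aged members. The part of these cells in the cell cycle difference was not tested. With young cells of none matched on depth, 6 genes were called in this comparison, and without young pool A 7.

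Aged members were compared with young members, with the facility letter as a block. They differed in 28 of 12095 genes (0.232%), 26 higher (0.215%) and 2 lower (0.0165%) in aged members (edgeR, BH). Without aged pool B 0 genes passed in edgeR, with 315 at an unadjusted p under 0.05, without aged pool A 9 passed, and without the facility block 0 passed, with 440 at an unadjusted p under 0.05. Without young pool A or B 45 and 72 passed.

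Immediate-early genes, induced quickly by many stimuli, were among the calls. Of 19 tested, 7 were higher in aged members and 0 lower, all 19 had a positive log2 fold change, and the median was 2.02 against 0.05 for all genes. Jun, a subunit of AP-1, stood at 324 and 135 CPM in young members and 1243 and 366 CPM in aged members, pool A first (1.66, adjusted p = 0.0460). Nr4a1, an orphan nuclear receptor, stood at 4.35 and 0 CPM against 115 and 8.53 CPM (4.73, adjusted p = 0.00328). Both were higher at the HalioDX facility than at TGML at each age. Hes1, a target of Notch signalling, also stood far apart between facilities, at 7.62 and 1.32 CPM against 335 and 4.13 CPM, so that aged pool B was below young pool A. The part of the facility in these levels was not tested.

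Metallothioneins and immunoglobulins were also higher in aged members. Mt2 stood at 9.79 and 5.30 CPM in young members and 93.5 and 153 CPM in aged members (3.90, adjusted p = 0.00328), and Mt1 at 84.9 and 59.6 CPM against 297 and 384 CPM (2.19, adjusted p = 0.0229). Igkc stood at 56.6 and 34.4 CPM against 1248 and 601 CPM (4.26, adjusted p = 9.42e-04). None of these 3 overlapped between ages. Of 7 plasma cell genes 4 were higher, with Igha at 6.53 and 0 CPM against 212 and 8.16 CPM. Ighg2b, an IgG heavy chain gene, had 0 UMIs in young members and stood at 165 and 1.28 CPM in aged members. In aged cells with none of the 8 genes Igkc reached 9889 and 15574 CPM, and the part of free immunoglobulin RNA in the members' level was not tested. The 2 lower genes were Ebi3, a cytokine subunit, at 59.9 and 83.5 CPM against 20.9 and 16.6 CPM (−1.97, adjusted p = 0.0204), and Nusap1, at 93.6 and 64.9 CPM against 24.6 and 25.6 CPM (−1.69, adjusted p = 0.0379). Their pools did not overlap between ages. The call of Nusap1 was lost with any 1 of the 4 pools left out, and its direction turned under the rule without Nupr1 and Clu (0.25). That of Ebi3 was lost without aged pool A, aged pool B or young pool B.

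Cell cycle genes gave 1 call between members of the 2 ages, that of Nusap1. Of 43 S phase genes 40 had a negative log2 fold change, aged over young members (median −0.92, 0 called in edgeR and DESeq2, 28 at an unadjusted p under 0.05), and of 52 G2 and mitosis genes 51 (median −1.19, 1 called). On the published aging list, again not split by direction, 9 of 204 genes were higher and 1 lower, with a median of 0.95. HSC markers had a median of 0.55 and 0 of 29 called in edgeR, with 14 at an unadjusted p under 0.05 and 1 called by DESeq2.

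**Figure D5:**
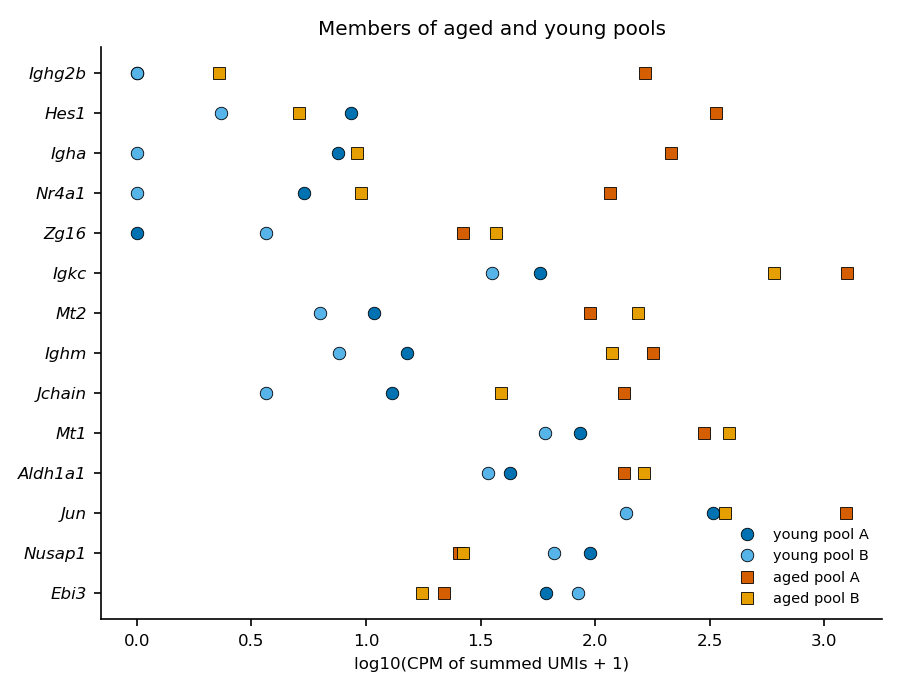
Level of 14 genes (y axis) in members of the 2 young pools (circles) and the 2 aged pools (squares), as log10 of 1 plus the CPM of UMIs summed per pool (x axis). Igkc, Mt1, Mt2 and Jun lay to the right for the squares of both aged pools, Nusap1 and Ebi3 lay to the left, and Hes1 in aged pool B was below young pool A.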

How the data were processed

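The authors deposited unnormalized counts of UMIs for each gene in each barcode, made with Cell Ranger 2.2.0 on mm10 (GRCm38.p4, per the submitters' processing notes) from 10x 3′ v2 libraries. The files list 28692 genes. The 4 pools held 5431 and 2337 barcodes (young A and B) and 3467 and 4331 (aged A and B), with 42244876, 18744814, 23725289 and 37416508 UMIs. After the filter at 2 SD 5189, 2244, 3328 and 4154 cells were kept, with medians of 6075, 6284, 5674 and 6719 UMIs, and no doublet caller was run.

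Counts of members and of cells with none of the 8 genes were summed per pool, giving 8 sums. These were scaled by TMM, filtered with filterByExpr and tested by edgeR's quasi-likelihood method at a BH threshold of 0.05, with the pool as a block and a class effect for each age. The 8 genes stayed in library sizes and out of the tests. Members of aged and young pools were compared on 4 sums with the facility letter as a block. Same-letter pools deviated together from their age means (correlation 0.621 over 9625 genes), and the labels give 1 facility for each letter. DESeq2 was an alternative. Replicates are pools of 2 or 3 mice, and the cells are not replicates. CPM are UMIs scaled to a common total per sum.

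For the depth-matched alternative, each young member was paired with the cell with none of the 8 genes nearest in UMIs, which left 104 and 86 such cells and so fewer UMIs. In aged pools, where members outnumber them, all 326 and 176 were kept and depth was not matched. Shares have exact Clopper-Pearson 95% intervals. Each cell was thinned once to 3000 UMIs with a fixed seed. On simulated counts of the young comparison (11960 genes), 44 of 97 genes given a 2-fold change and 71 of 99 given a 4-fold change were recovered by edgeR, and 6 calls were false. For the comparison of members between ages (11872 genes) it recovered 6 of 96 and 72 of 96 with 2 false. Small changes could therefore be missed in both.

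Members and lists were chosen with earlier results of these data known. Genes are named as the 8 rule genes, a fixed panel, the 10 calls of largest change up and down that moved alike in both pools at a mean of at least 20 CPM (up to 8 in each direction between ages, where 8 higher and 2 lower were found), and the 5 most alike genes. Mycn, Gp9, Fcer1a, Lmo4, Sox18, Klf2, Isg15, H2-DMa, H2-Ob, Gas2l3, Ccnd1, Ccnd2 and Tm4sf1 were named after their values were seen, as the few calls of a list. Counts of calls cover all genes of a list, of which 1 is not reported here by name. Gstm2, Plscr2, Mt1, Mt2 and immunoglobulin genes have close relatives, so their reads may be shared. Coordinates of promoters are from RefSeq on GRCm38.p6. Versions were Python 3.11.15, NumPy 2.4.6, pandas 2.3.3, SciPy 1.17.1, R 4.3.3, edgeR 4.0.16 and DESeq2 1.42.0.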

Additional observations from a re-analysis of the deposited data

Results flagged for a closer look

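The difference between members and cells with none of the 8 genes was not the same at both ages for 105 genes by the term for class and age in edgeR. For held-out Nupr1 the class effect, cells chosen by the other 7 genes over cells with none of them, was larger in young than in aged pools by 1.05 on the log2 scale (edgeR, BH adjusted p = 0.00277), while its level was lower in both classes of the young pools. It was called neither without young pool B (0.81, adjusted p = 0.670) nor on matched depth (1.66, adjusted p = 0.404).

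Among the named genes, the difference, young minus aged, was positive for the cell cycle genes Nusap1 (1.46), Mki67 (1.60), Top2a (1.35) and Mcm5 (1.39), and none of these 4 was called without young pool A or on matched depth. With 3 or more of the 8 genes the difference was negative for Nusap1 (−0.047) and Mki67 (−0.59). It was negative for both under the rule without Nupr1 and Clu too (−0.56 and −0.42). Top2a, a DNA topoisomerase, stood at 129 and 121 CPM in young cells with none and 200.2 and 96.7 CPM in young members, and at 112 and 132 CPM against 46.5 and 67.6 CPM in aged pools. The young pools overlapped between classes and the aged pools did not. Mcm5, a subunit of the replicative helicase, stood at 83.2 and 73.6 CPM against 89.2 and 63.6 CPM in young pools and at 74.4 and 122 CPM against 38.8 and 34.2 CPM in aged pools.

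The difference was also positive for genes of differentiating cells, Plac8 (1.81), Pf4 (1.04), Elane (3.39) and Dntt (4.03). That of Pf4 was negative with 3 or more of the 8 genes (−0.59). Without young pool A, Plac8, Elane and Dntt were not called, and without young pool B, Pf4 and Dntt were not, nor was Dntt without aged pool B. Elane, neutrophil elastase, stood at 127 and 206 CPM in young cells with none and 224 and 131 CPM in young members, where 1 cell of each pool held 91.7% and 82.8% of the UMIs, and at 466 and 547 CPM against 119 and 23.5 CPM in aged pools. Dntt, the template-independent DNA polymerase of early lymphoid cells, stood at 7.69 and 11.9 CPM against 3.26 and 13.2 CPM in young pools, and at 1.80 and 8.62 CPM against 0.127 and 0.369 CPM in aged pools.

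The difference was negative for Fos (−1.30), Alcam (−1.84) and Isg15 (−1.98), of which Fos and Alcam were not called without young pool A. Fos, a subunit of AP-1, stood at 95.9 and 50.7 CPM against 50.1 and 49.0 CPM in young pools and at 512 and 58.0 CPM against 984 and 86.0 CPM in aged pools. Alcam, the adhesion molecule CD166, stood at 27.1 and 31.0 CPM against 20.7 and 26.5 CPM in young pools and at 48.6 and 11 CPM against 112 and 58.7 CPM in aged pools. Isg15 fell in young members and stood at 19.8 and 20.4 CPM in aged cells with none and 35.3 and 52.4 CPM in aged members, where it rose (1.04, adjusted p = 0.00150). With young cells of none matched on depth, 6 genes were called in this comparison, and without young pool A 7.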

How the results depend on the processing

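Counts of called genes moved with the processing. For young members against cells with none (170), 481 were called from the 4 young sums only, 96 by DESeq2, 51 on matched depth, 72 with no UMI filter on cells, 374 with no filter on low counts, 341 without the deepest 10% of cells and 29 to 518 with 1 pool left out. For aged members (1811) DESeq2 called 988 and the rule at 3000 UMIs 3262, with 1377 to 2220 with 1 pool left out. The class by age term (105) gave 6 on matched depth, 69 with 3 or more genes and with no UMI filter, 374 with no filter on low counts, 28 with the rule at 3000 UMIs, 54 without the deepest 10% of cells and 7 to 1000 with 1 pool left out. Between ages (28) DESeq2 gave 44, 3 or more genes 44, no UMI filter 178, no filter on low counts 305, the rule at 3000 UMIs 48, the rule without Nupr1 and Clu 74, leaving out the deepest 10% of cells 112, and leaving out 1 pool 0 to 72. With no replicate block, 0 genes were called in each of the 4 comparisons by edgeR, with 447, 1149, 278 and 440 at an unadjusted p under 0.05. Of the held-out genes (7 of 8), 3 passed on matched depth and 3 to 7 with 1 pool left out, and all 8 passed in aged pools with 1 pool left out.

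With 1 or more of the 8 genes the shares were 15.6%, 19.3%, 90.2% and 95.8% (young A, B, aged A, B), with 3 or more 0.289%, 1.07%, 52.2% and 74.0%, and thinned to 3000 UMIs 0.559%, 1.60%, 55.6% and 69.8%.

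Some values changed sign without a call in either fit, such as Hlf on matched depth (0.067 against −0.35), and are left out here. The values counted as reversed follow, and the cause was not tested. On matched depth, Jchain (0.39) and Igkc (0.19). With 3 or more genes, Nusap1 (−0.82), Pf4 (−1.42) and Elane (−3.46), and in the class by age term Nusap1 (−0.047), Pf4 (−0.59) and Mki67 (−0.59). With the rule at 3000 UMIs, Pf4 (−1.32). With the rule without Nupr1 and Clu, Nusap1 (−1.24), Pf4 (−1.22), Elane (−2.41), Gp9 (−0.13) and Gas2l3 (−0.48), in the class by age term Nusap1 (−0.56) and Mki67 (−0.42), and between ages Nusap1 (0.25). Without the deepest 10% of cells, Nusap1 (−0.12), Pf4 (−0.97), Elane (−1.90) and Cdkn2c (−1.77). With 1 pool left out, Sox18 lay between −2.98 (young A out) and 2.32, Klf2 between −7.12 (young A out) and 1.66, and held-out Sbspon between −6.08 (young B out) and 1.66. In the class by age term Clec1a lay between −1.02 (aged A out) and 0.59, Prss34 between −1.69 and 1.14 (aged A out), Mcpt8 between −1.58 and 1.52 (aged A out), and Cpa3 between −0.98 (aged B out) and 1.69. Of all values of single genes under the alternatives, 4452 stayed on the same side of the threshold, 448 lost the call, 279 gained it and 28 were counted as reversed. Some of the 4452 changed sign without a call, such as Elane in young members without young pool A (−0.64 against 0.11), and are not among the 28. Leaving out the 2 cells with endothelial markers was chosen after seeing the data. The members' sums, 918868 and 754928 UMIs, limit the young comparison, and fits with 1 pool left out assume that the lone pool varies like the others.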
